A study of Mus musculus with 14 samples.

Results

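The 10 genes described here act in the migration of cerebellar granule cells. They are Cxcr4, Cxcl12 and Ackr3 of the chemokine axis, the astrotactins Astn1 and Astn2, Dcx, Dclk1 and Dclk2 of the doublecortin family, Pafah1b1, which encodes Lis1, and the polarity gene Pard6a. They were picked for this function, with earlier results of these data known, from the 41381 genes of the deposited table. All 10 were among the 17325 genes tested. Those genes had a level of at least 1 TPM (transcript abundance per length, scaled to the same total in each library) in at least 4 libraries. Total RNA was sequenced from granule neuron progenitors (GNPs), which were purified over percoll gradients from cerebella of mouse pups at postnatal day 7. The sexes were not distinguished. In 5 libraries, called WT, the first 3 are labelled wild type for Chd7 and the later ones Atoh1-Cre negative; the Cre status of the first 3 is not given in the labels. The study writes its WT mice as Chd7 f/f without Cre, so a floxed allele alone does not set the groups apart. The 5 Het libraries combine Atoh1-Cre with Chd7 f/+ and the 4 Hom libraries combine it with Chd7 f/f, where the label spells it out. Atoh1-Cre drives recombination in Atoh1-positive cells of the rhombic lip, the origin of the granule lineage and of other excitatory neurons. Cells of another origin in a preparation would keep their Chd7 alleles. Recombination may also be incomplete within the lineage. The study reports some Chd7 protein left in the posterior lobe of mutants and gives low Cre efficiency as the probable reason. The strain is labelled C56Bl6/J in all libraries of the first deposit and C57BL/6 in those of the second. Sequencing was done in 2 batches. Batch 2 comprised 6 libraries, a pair of each genotype (WT 4, WT 5, Het 4, Het 5, Hom 3 and Hom 4), and batch 1 the other 8.

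Granule cell progenitors divide in the external granule layer at the surface of the cerebellum. Their daughters leave the cell cycle, move along the layer, and then descend along the fibres of Bergmann glia through the molecular layer to the internal granule layer. Cxcl12, a chemokine secreted by the meninges, holds progenitors at the surface through its receptor Cxcr4, and Ackr3 is an atypical receptor that binds and clears the same ligand. Astn1 is an adhesion protein of the neuron surface that joins the migrating neuron to the glial fibre, and Astn2 controls how much Astn1 stands at that surface. Dcx, Dclk1 and Dclk2 bind and stabilise microtubules, Lis1 regulates the dynein motor that moves the nucleus, and the Par6 polarity complex, to which Pard6a belongs, sits at the centrosome during each step.

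The Cxcr4 promoter is shown because Cxcr4 had the largest change of the 10 genes. It is the 250 bases upstream of the RefSeq start on the minus strand of GRCm38.p6, chr1:128592300-128592549, printed 5′ to 3′ with the stretch that holds the motif TATAAA on both strands in capitals.

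Cxcr4: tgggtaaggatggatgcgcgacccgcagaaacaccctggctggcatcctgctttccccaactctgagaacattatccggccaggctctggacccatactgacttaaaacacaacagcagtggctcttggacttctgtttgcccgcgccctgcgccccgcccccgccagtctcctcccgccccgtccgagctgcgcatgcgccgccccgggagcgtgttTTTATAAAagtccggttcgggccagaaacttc

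TATAAA, searched on both strands, is held by 12.4% of the 32851 promoters of this length, and by those of Ackr3 and Dcx besides Cxcr4. The E-box letters CANNTG, to which Atoh1 and other basic helix-loop-helix factors bind, are held by 66.2% of all promoters. Among the migration genes, CANNTG was found in the promoters of Astn1, with 3 matches, of Dclk1 and of Pard6a. The window of Cxcr4 held 0 matches to CANNTG and 19 CpG dinucleotides, and 61.2% of its bases were G or C. These matches are letters in a window and were not set against any measure of binding.

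The genes differ widely in size and position (GRCm38, GENCODE). Cxcr4 is a 2-exon gene on the minus strand of chromosome 1, from 128588199 to 128592293. Pard6a spans 2.35 kb with 4 exons on the plus strand of chromosome 8, from 105701148 to 105703496. Astn2, on the minus strand of chromosome 4 from 65380803 to 66404611, and Astn1, on the plus strand of chromosome 1 from 158362273 to 158691781, are the longest. Of the 10 genes, Dclk1 alone shares annotated exon bases with another gene, 87 bases of Gm42609 and 27 of Gm21954, both on the opposite strand.

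In WT the highest level of the 10 was that of Dcx, at 297 ± 19.3 TPM (mean ± SD, n = 5), above 97.3% of the genes tested. Pafah1b1 followed at 165.0 ± 9.71 TPM. These highest levels did not overlap each other or any gene below. Dclk1 (86.4 TPM), Cxcl12 (81.7 TPM), Dclk2 (78.8 TPM), Cxcr4 (73.7 TPM) and Astn2 (72.05 TPM) came next, and the WT ranges of neighbours in this order overlapped. Astn1 (35.8 TPM) and Pard6a (35.3 TPM) overlapped each other and lay below Astn2. Ackr3 was lowest at 5.14 ± 0.816 TPM, above 29.5% of the genes tested. TPM is scaled by transcript length, so levels can be set side by side between genes. In Hom, Cxcr4 had rank 3 at 121.3 TPM, and its range no longer overlapped that of the next gene, Dclk1. Astn1 and Pard6a, next to each other in WT, were apart in Hom, at 43.1 and 26.3 TPM.

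**Figure D1:**
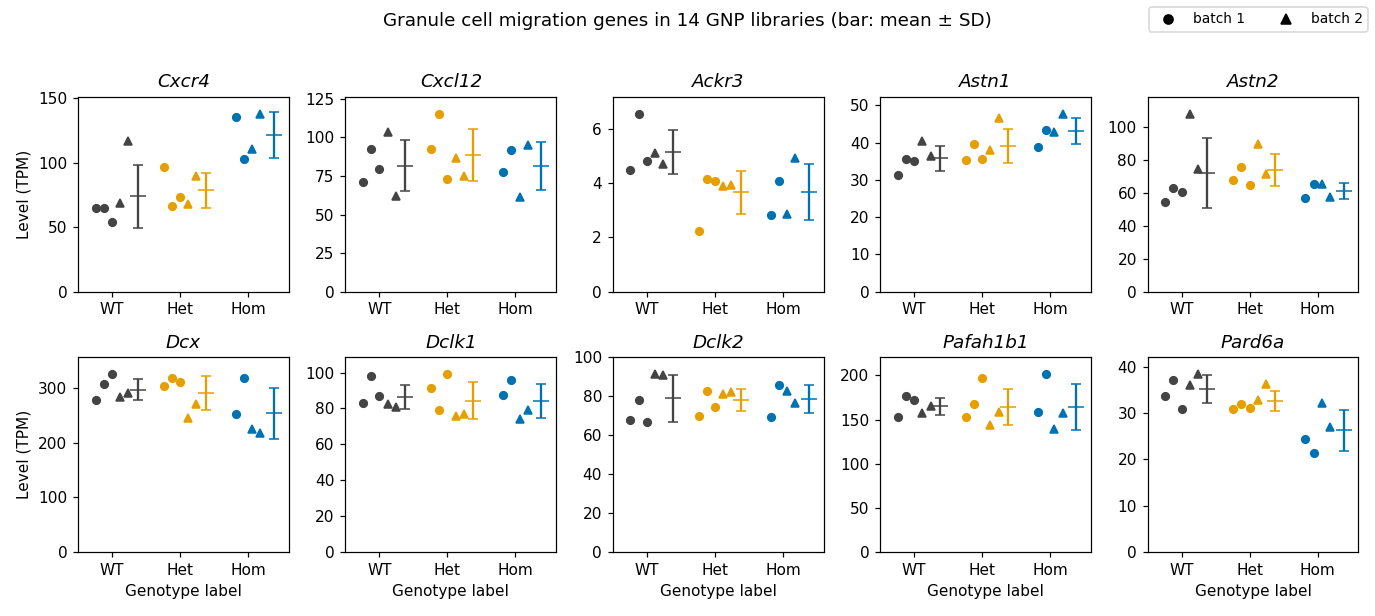
TPM of the 10 migration genes in each of the 14 libraries (vertical axes in TPM from 0, circles batch 1, triangles batch 2), by genotype label, with the mean and SD of each group as a bar. The Hom libraries of Cxcr4 lie between 102.5 and 137.4 TPM, and those of Pard6a between 21.5 and 32.1 TPM.

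Chd7, the targeted gene, did not separate the labels at the level of the whole gene. WT libraries held from 120.8 to 272.1 TPM, Het from 136.8 to 181.3 TPM and Hom from 125.6 to 185.4 TPM (log2 change of Hom against WT -0.11, limma adjusted p = 0.862). In batch 1 every library labelled Hom lay above every library labelled WT, and in batch 2 every one lay below. These values cover the whole gene and do not resolve single exons. Separately, the study reports less Chd7 in its mutant granule cells, by quantitative PCR of the transcript and by antibody staining. Genotypes below are those of the labels. Progenitor markers were high throughout (Barhl1 from 237.1 to 432.6 TPM, summed level of 10 progenitor genes from 2257 to 3193 TPM). Gabra6, a gene of mature granule cells, reached at most 1.03 TPM. Summed over 10 genes of postmitotic granule neurons, WT libraries held 1985 to 2666 TPM and Hom libraries 1684 to 1923 TPM, with no overlap. Neurod1, Tubb3 and Map2 had the highest medians of these genes (759.4, 582.0 and 310.8 TPM over all libraries). Of these, Map2 overlapped, with 281.1 to 354.6 TPM in WT and 277.2 to 338.6 TPM in Hom. Of the 10 summed genes, 8 had a mean of at least 1 TPM in WT and 9 in Hom. A gene of low level thus had a higher mean in Hom, against the direction of the sum. The study counts Neurod1 among genes whose expression needs Chd7, so this sum is not a measure of cell makeup alone. Markers of other cells also moved between libraries. The summed level of 8 Purkinje cell genes was 152.2 to 198.6 TPM in WT 1 to 3 and at most 95.4 TPM in the others. Of these genes, Pcp4 was the most abundant (12.3 to 94.0 TPM), Pcp2, Car8 and Calb1 reached 30.6, 21.0 and 18.4 TPM, and Skor2 reached 0.54 TPM. The sum of 8 genes of Bergmann glia and astrocytes ranged from 407.3 to 1816 TPM in WT and from 333.5 to 687.4 TPM in Hom. For oligodendroglia (7 genes) the ranges were 646.6 to 1220 and 518.4 to 1224 TPM, for microglia (6 genes) 141.3 to 329.3 and 217.5 to 332.6 TPM, for interneurons (5 genes) 72.6 to 119.6 and 75.7 to 166.7 TPM, for mural cells (5 genes) 12.6 to 91.1 and 27.9 to 64.4 TPM, and for red blood cells (4 genes) 158.2 to 410.9 and 100.6 to 207.2 TPM. In a bulk sample, fewer cells of a type and less RNA per cell cannot be told apart.

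The comparison of Hom with WT asks what happens to these genes when Atoh1-Cre is combined with Chd7 f/f. Cxcr4, the receptor, rose and Pard6a, the polarity gene, fell. The other 8 did not pass the test. Called genes, those with a limma adjusted p under 0.05 over all genes tested, made up 1.27% (higher) and 1.41% (lower) of the 17325 genes, against 1 in each direction among the 10. At an unadjusted p under 0.05, 2 were higher (Cxcr4 and Astn1) and 3 lower (Pard6a, Dcx and Ackr3), where 8.51% and 6.42% of all genes were. None of the 10 had every Hom library above (2.91% of all genes) or below (1.96%) every WT library. The median log2 change of the 10 was -0.02, and that of all genes 0.02.

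Cxcr4, the G protein-coupled receptor for Cxcl12, stood at 65.0, 64.6, 54.0, 68.4 and 116.8 TPM in WT 1 to 5. The Het libraries 1 to 5 held 96.5, 66.0, 73.1, 68.3 and 89.6 TPM. Hom 1 to 4 held 135.2, 102.5, 110.2 and 137.4 TPM. WT 5 lay among the Hom libraries, and the other WT libraries lay below all of them. Every Hom library lay above every Het library, which 1.11% of all genes showed. Hom was 1.66-fold higher than WT in the fit, a log2 change of 0.73 ± 0.18 (SE, 95% interval 0.34 to 1.12, limma adjusted p = 0.0498). The adjusted p was close to the threshold and the call rests on single libraries. It was kept without WT 5, where the change was 0.91 (adjusted p = 0.00488), without Het 1, without Het 4 (0.0485) and without Hom 3 (0.0497). It was lost without any one of the other 10 libraries, with adjusted p-values from 0.0564 (without Het 2) to 0.16 (without Hom 1), while the change stayed between 0.62 and 0.78. It was also lost with small changes of processing, such as a pseudocount of 0.1 (adjusted p = 0.0504), median-ratio scaling (0.0557) or no batch term (0.0611). In batch 1, WT held 61.2 ± 6.26 TPM (n = 3) and the Hom libraries a mean of 118.9 TPM, and in batch 2 the means were 92.6 TPM and 123.8 TPM (n = 2 each). Fitted alone, batch 1 gave a change of 0.94 (adjusted p = 0.0628) and batch 2 a change of 0.46 (adjusted p = 0.411), and the difference between batches was -0.48 ± 0.35 (interaction, adjusted p = 0.501).

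Endothelial cells also express Cxcr4, and endothelial markers varied between libraries. Their summed level had a median of 35.1 TPM in WT, 153.5 TPM in Het and 259.0 TPM in Hom, with overlapping ranges. The summed level of 7 endothelial genes, all of them detected, was 25.1, 35.1, 32.0, 217.9 and 121.0 TPM in WT 1 to 5, 152.8, 468.7, 21.0, 153.5 and 249.4 TPM in Het 1 to 5, and 114.4, 350.9, 213.8 and 304.1 TPM in Hom 1 to 4. Het 2, with the highest sum of all, held 66.0 TPM of Cxcr4, and Hom 1, with the lowest sum of the Hom libraries, held 135.2 TPM. WT 1 to 3 were low in both, with 54.0 to 65.0 TPM of Cxcr4. With the log of this sum as a further term, a fit added after the data were seen, the change of Cxcr4 was 0.72 and the adjusted p 0.131. In that fit Pard6a changed by -0.41 (adjusted p = 0.0585). How much of the Cxcr4 level came from endothelial cells was not tested.

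**Figure D2:**
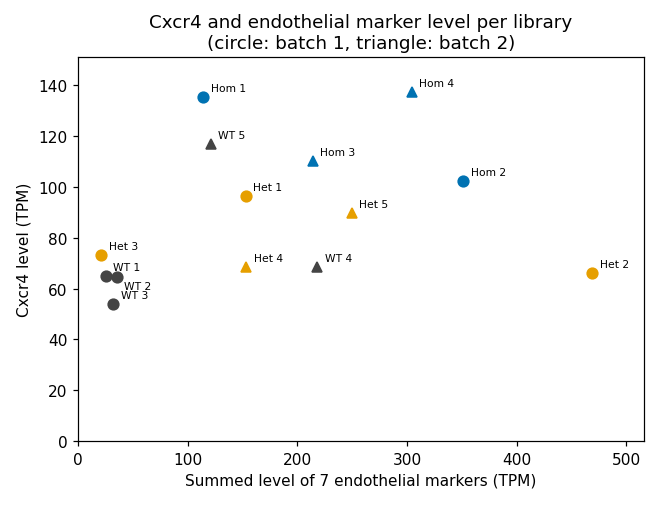
Cxcr4 level (vertical axis, TPM) against the summed level of 7 endothelial genes (horizontal axis, TPM) in the 14 libraries (black WT, orange Het, blue Hom, circles batch 1, triangles batch 2). Het 2 has the highest endothelial sum at 468.7 TPM with 66.0 TPM of Cxcr4, Hom 1 has 135.2 TPM of Cxcr4 at a sum of 114.4 TPM, and WT 1 to 3 are low in both.

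The ligand Cxcl12 did not pass the test in any contrast. It stood at 71.2, 92.7, 79.2, 103.7 and 61.9 TPM in WT 1 to 5, at 92.7, 115.0, 73.1, 86.9 and 74.9 TPM in Het 1 to 5, and at 77.4, 92.1, 61.2 and 95.1 TPM in Hom 1 to 4. The ranges of the 3 groups overlapped. The log2 change of Hom against WT was 0.01, with a 95% interval from -0.36 to 0.38. Markers of the meninges, the known source of the ligand, moved with single libraries. WT 5 had the lowest sum of 8 meningeal genes in the series (102.7 TPM) and Hom 3 the next (146.3 TPM), and these 2 libraries had the lowest Cxcl12 levels. The part of meningeal cells in the Cxcl12 level was not tested.

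The clearing receptor Ackr3 was a low gene in all libraries. WT 1 to 5 held 4.49, 6.54, 4.82, 5.12 and 4.72 TPM. Het 1 to 5 held 2.23, 4.16, 4.09, 3.89 and 3.93 TPM, all below the lowest WT library, which 0.583% of genes showed. Hom 1 to 4 held 2.83, 4.09, 2.86 and 4.93 TPM, and Hom 4 reached into the WT range. The log2 change was -0.41 ± 0.17 (SE) in Het (95% interval -0.78 to -0.04, adjusted p = 0.768) and -0.41 ± 0.18 in Hom (interval -0.81 to -0.02, adjusted p = 0.31). Neither passed the test over all genes. Changes are on the log2(TPM + 1) scale, which understates those of a gene this low. The Het and Hom contrasts use the same WT libraries.

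Pard6a, a member of the Par6 complex that orients the centrosome in a migrating granule cell, fell in Hom. It stood at 33.7, 37.3, 30.9, 36.1 and 38.4 TPM in WT 1 to 5. Het 1 to 5 held 30.8, 32.0, 31.2, 32.9 and 36.4 TPM. Hom 1 to 4 held 24.5, 21.5, 32.1 and 27.1 TPM. Hom 3 lay within the WT and Het ranges, and the other Hom libraries lay below every WT and Het library. Within its own batch every Hom library was below every WT library, which 3.56% of all genes showed. Hom stood at 0.736 of the WT level, a log2 change of -0.44 ± 0.08 (SE, 95% interval -0.62 to -0.27, limma adjusted p = 0.00996). The call was kept whichever library was left out, with changes from -0.51 to -0.38 and adjusted p-values up to 0.0387. It was lost without the batch term (adjusted p = 0.0611) and with only the 2 genotypes in the fit (0.0606). Batch 1 means were 34.0 TPM in WT and 23.0 TPM in Hom, and batch 2 means were 37.2 and 29.6 TPM. Each batch fitted alone gave -0.54 (adjusted p = 0.0628) and -0.33 (adjusted p = 0.29). Pard6a is on the list of lower genes that the study drew from these libraries, so its fall here is not independent evidence of its direction. The sum of postmitotic granule neuron genes moved the same way between WT and Hom, and its part in the fall of Pard6a was not tested.

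**Figure D3:**
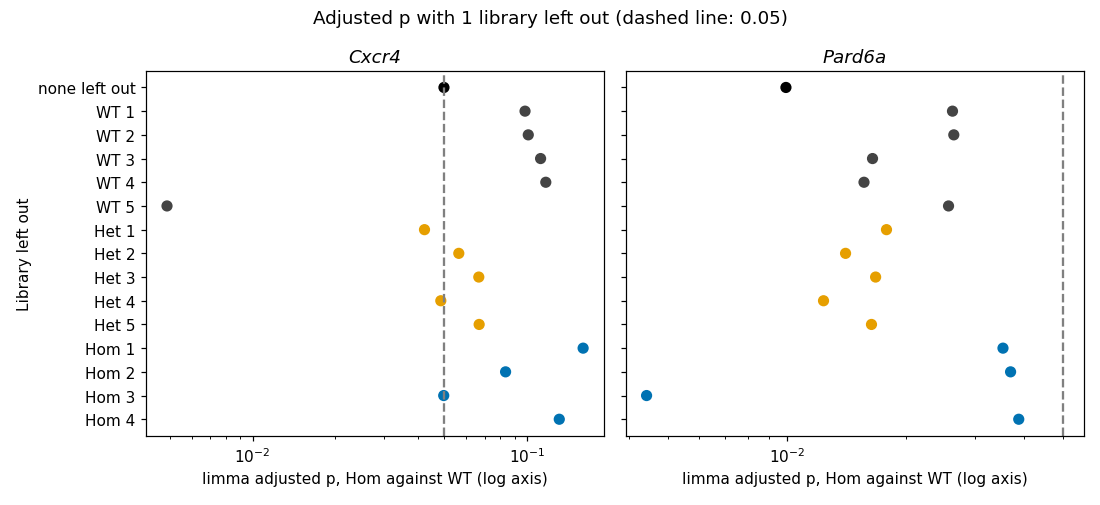
Adjusted p of Hom against WT (horizontal log axis) for Cxcr4 and Pard6a in the fit on all 14 libraries and in each of the 14 fits that leave 1 library out (rows), with a dashed line at 0.05. Cxcr4 lies above 0.05 in 10 of the 14 fits and reaches 0.00488 without WT 5, and Pard6a stays at or under 0.0387 in all of them.

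The neuron-glia adhesion gene Astn1 did not pass the test in Hom. It stood at 31.3, 35.6, 35.1, 40.5 and 36.3 TPM in WT 1 to 5 and at 38.8, 43.3, 42.8 and 47.6 TPM in Hom 1 to 4. The groups overlapped at 1 library, WT 4 above Hom 1. Within its own batch every Hom library was above every WT library, which 5.44% of genes showed. The log2 change was 0.25 ± 0.08 (95% interval 0.08 to 0.41, unadjusted p = 0.00669, limma adjusted p = 0.13). Het 1 to 5 held 35.4, 39.6, 35.7, 38.0 and 46.7 TPM (log2 change 0.12, interval -0.03 to 0.28). Het 5 lay above 3 of the Hom libraries, and Het 1 to 4 lay within the WT range.

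Astn2, the partner that takes Astn1 from the surface, varied more among the controls than between genotypes. WT 1 to 5 held 54.3, 63.2, 60.5, 107.7 and 74.6 TPM, Het 1 to 5 held 67.6, 75.9, 64.6, 89.7 and 71.7 TPM, and Hom 1 to 4 held 56.7, 65.4, 65.2 and 57.3 TPM. Both WT libraries of batch 2 were above every Hom library, and the WT libraries of batch 1 were within the Hom range or below it. The log2 change of Hom was -0.22 (95% interval -0.51 to 0.07, adjusted p = 0.479), and it was -0.08 without WT 4 and -0.14 without Hom 4. Of the 10 genes, Astn2 had the smallest p for a difference of the Hom effect between batches, -0.58 ± 0.23 (interaction, unadjusted p = 0.0265, adjusted p = 0.229). No migration gene was called for this difference, against 2 of all genes tested (0.0115%). The share of all genes with so small an unadjusted p was not counted.

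Dcx, the microtubule protein of young migrating neurons, did not pass the test in Hom. WT 1 to 5 held 277.9, 308.5, 325.4, 284.9 and 290.5 TPM, Het 1 to 5 held 305.0, 319.6, 312.0, 246.4 and 271.9 TPM, and Hom 1 to 4 held 253.0, 319.5, 225.0 and 218.1 TPM. Hom 2 lay near the top of the WT range and the other Hom libraries below it. The log2 change of Hom was -0.22 ± 0.08 (SE, 95% interval -0.39 to -0.05, unadjusted p = 0.0145, limma adjusted p = 0.197). Without Hom 2 it was -0.31 and was called (adjusted p = 0.0292), which makes 2 of the 10 genes lower in that fit. In batch 2 the Het and Hom libraries all lay below both WT libraries.

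The other microtubule genes did not pass the test in any contrast, and their means were close. Dclk1, whose main product joins a doublecortin part to a kinase part, had 86.4 ± 6.96 TPM in WT, 84.4 ± 10.3 in Het and 84.2 ± 9.71 in Hom. Its log2 change in Hom was -0.02 (95% interval -0.18 to 0.13). Dclk2, the related kinase, had 78.8 ± 12, 78.2 ± 5.74 and 78.6 ± 7.43 TPM, and a change of -0.01 (interval -0.20 to 0.17). Pafah1b1 had 165.0 ± 9.71, 164.2 ± 20.4 and 164.0 ± 26.3 TPM, and a change of -0.00397 (interval -0.20 to 0.19). Over both batches, the spread between libraries of the same label was larger than any difference between labels for these 3 genes. In batch 2 all Het and Hom libraries lay below both WT libraries for Dclk1 and Dclk2. In batch 1 the means of WT, Het and Hom were 89.5, 89.85 and 91.85 TPM for Dclk1. For Dclk2 they were 70.7, 75.8 and 77.6 TPM.

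**Figure D4:**
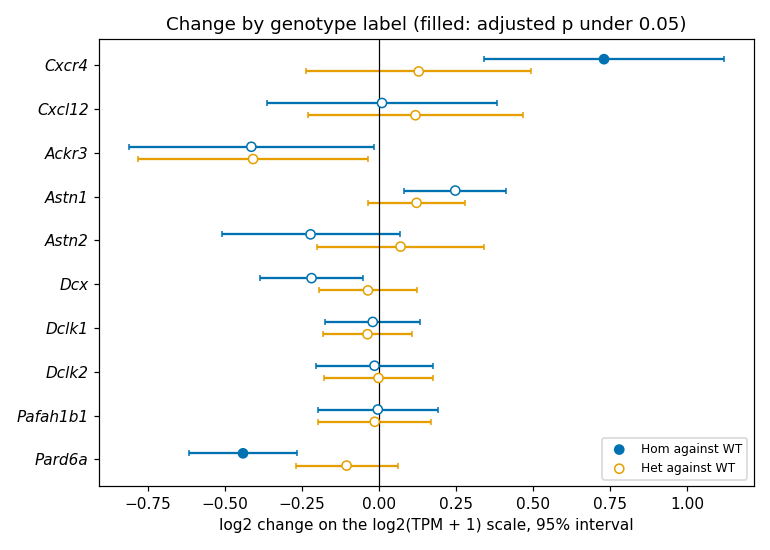
Log2 change on the log2(TPM + 1) scale (horizontal axis) of the 10 migration genes in Hom (blue) and Het (orange) against WT, with 95% intervals, filled where the adjusted p was under 0.05. Cxcr4 at 0.73 and Pard6a at -0.44 in Hom are filled, and no Het value is.

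In Het, with Atoh1-Cre and Chd7 f/+, none of the 10 genes passed limma's test. Across all genes, 0% were called lower and 0.00577% (1 gene) higher. At an unadjusted p under 0.05, 1 of the 10 was lower (Ackr3), where 2.88% of all genes were, and 0 were higher, where 3.2% were. Within its own batch, Ackr3 alone had every Het library below every WT library (1.09% of genes), and 0 of the 10 had every Het library above (1.43%). Cxcr4 changed by 0.13 in Het (95% interval -0.24 to 0.49). Pard6a changed by -0.11 (interval -0.27 to 0.06). For Cxcl12 the change was 0.12 (interval -0.23 to 0.47), and for Astn2, Dcx, Dclk1, Dclk2 and Pafah1b1 it was between -0.04 and 0.07.

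Set directly against Het, Hom also gave no called gene among the 10, with 0.277% of all genes called lower and 0.15% higher. The difference for Cxcr4 was 0.60 ± 0.18 (95% interval 0.21 to 0.99, unadjusted p = 0.00525, adjusted p = 0.304). For Pard6a it was -0.34 ± 0.08 (interval -0.51 to -0.16, unadjusted p = 0.00119, adjusted p = 0.13). Astn2, at -0.29 (adjusted p = 0.798), and Dcx, at -0.18 (adjusted p = 0.739), did not pass the test. At an unadjusted p under 0.05, 3 of the 10 were lower, where 3.13% of genes tested were, and 1 was higher, where 3.05% were. None of the 10 had every Hom library below every Het library, which 1.06% of genes showed. These adjusted and unadjusted p-values are limma's.

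The genes that work with the 10 were followed as 55 partners, listed with earlier results of these data known, of which 54 were tested. In Hom, 1 was called higher and 3 lower, where 1.27% and 1.41% of all genes were, and their median log2 change was 0.04. At an unadjusted p under 0.05, 6 were higher and 5 lower in Hom, where 8.51% and 6.42% of all genes were. In Het and in Hom against Het 0 were called. At an unadjusted p under 0.05, 1 was lower and 6 were higher in Het (2.88% and 3.2% of all genes), and 5 were lower and 1 was higher in Hom against Het (3.13% and 3.05%).

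Among 11 genes of chemokine signalling, Grk3, a kinase that phosphorylates G protein-coupled receptors and turns them off, rose. It stood at 35.7, 46.1, 38.6, 48.3 and 49.8 TPM in WT 1 to 5. Het 1 to 5 held 51.1, 53.0, 47.5, 50.8 and 50.4 TPM. Hom 1 to 4 held 64.9, 76.3, 64.5 and 53.1 TPM. All Hom libraries lay above all WT libraries (2.91% of all genes did) and all Het libraries (1.11% did). Hom 4 (53.09 TPM) and Het 2 (53.0 TPM) were nearly level. All Het libraries except Het 3 lay above all WT libraries. The change of Hom was 0.55 ± 0.11 (95% interval 0.31 to 0.80, limma adjusted p = 0.0171). Without Hom 1 or Hom 2 the adjusted p was 0.0622 or 0.0601, and with the endothelial sum as a term the change was 0.41 (adjusted p = 0.107). Batch 1 alone gave 0.80 (adjusted p = 0.03) and batch 2 alone 0.25 (adjusted p = 0.344). Of the 11 genes, 10 had a change above 0, as had 9618 of the 17325 genes tested.

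In the group of migration along glia and along the layer, 3 of 11 genes fell, against 1.41% of all genes. This list was chosen with earlier results of these data known, so the share is not independent evidence. The summed postmitotic granule neuron markers were also lower in Hom, with no overlap with WT (1684 to 1923 TPM against 1985 to 2666 TPM), and their part in these changes was not tested. Dbn1, the actin-binding protein drebrin, stood at 394.0 ± 48.5 TPM in WT (n = 5) and 331.4 ± 47.1 TPM in Hom (n = 4), a change of -0.28 ± 0.06 (adjusted p = 0.029). The groups overlapped through Hom 3, at 399.0 TPM. Nrg1, a neuregulin ligand, held 2.75, 3.73, 4.04, 3.95 and 4.19 TPM in WT 1 to 5, from 2.08 to 3.23 TPM in Het, and 2.52, 1.73, 1.35 and 2.3 TPM in Hom 1 to 4. Every Hom library lay below every WT library, which 1.96% of genes showed, and the change was -0.68 ± 0.16 (limma adjusted p = 0.0422). Erbb4, a receptor tyrosine kinase that binds neuregulins, held 35.9, 43.5, 46.1, 55.4 and 47.9 TPM in WT 1 to 5, from 34.9 to 46.1 TPM in Het, and 29.0, 39.7, 27.3 and 28.2 TPM in Hom 1 to 4. Hom 2 lay above WT 1, and the other Hom libraries lay below every WT library. Its change was -0.54 ± 0.13 (limma adjusted p = 0.04999). These calls rest on few libraries. Dbn1 lost its call without any one of WT 2, WT 4, WT 5, Hom 1, Hom 2 and Hom 4 (adjusted p up to 0.0896). Nrg1 kept it only without WT 1, Het 4 or Hom 1, and Erbb4 only without WT 1, Het 2 or Hom 2. Without the other 11 libraries in turn, the adjusted p reached 0.115 for Nrg1 and 0.147 for Erbb4. Batch 1 fitted alone gave -0.26 for Dbn1, -0.53 for Nrg1 and -0.29 for Erbb4. Batch 2 alone gave -0.30, -0.86 and -0.87. None was called in a single batch (limma adjusted p from 0.0617 to 0.45).

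**Figure D5:**
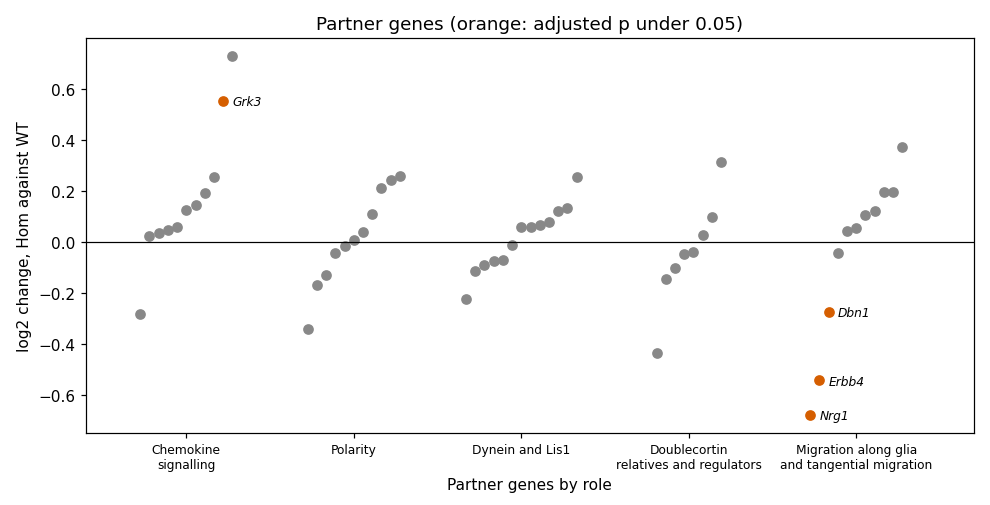
Log2 change of Hom against WT (vertical axis, log2(TPM + 1) scale) of the 54 tested partner genes by role (horizontal axis), sorted within each role, in orange where the adjusted p was under 0.05. Grk3 at 0.55 is called in the chemokine group, and Dbn1 at -0.28, Erbb4 at -0.54 and Nrg1 at -0.68 in the migration group.

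No partner was called among the 11 polarity genes, the 13 genes of dynein and Lis1 or the 8 tested relatives and regulators of the doublecortins. Their median log2 changes in Hom were 0.006, 0.06 and -0.04. At an unadjusted p under 0.05, 1 polarity gene was higher (8.51% of all genes were), and 1 gene of each other group was lower (6.42%). Myh10, a non-muscle myosin heavy chain on the polarity list, was nearest to a call in Hom among these, with 127.9 ± 4.86 TPM in WT and 151.0 ± 8.05 TPM in Hom (change 0.24, limma adjusted p = 0.0538). In Het the smallest unadjusted p-values of the partners were those of Myh10 (change 0.21, adjusted p = 0.515), of Neo1, a receptor for netrins (0.22, adjusted p = 0.706), and of Dync1li1, a dynein light intermediate chain (0.13, adjusted p = 0.767). In Hom against Het they were those of Dbn1 (-0.23, adjusted p = 0.193), of Pafah1b3, a catalytic partner of Lis1 (-0.20, adjusted p = 0.376), and of Grk3 (0.34, adjusted p = 0.431).

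Patterns over the 14 libraries were compared as a description, by Pearson's r on log2(TPM + 1) after removal of the batch term. Genotype, cell makeup and depth, which is unknown here, can move many genes together across the libraries, so these values carry no test. Cxcr4 was most like Zeb1 (r = 0.935) and 1110002E22Rik (0.919), a gene with a mean of only 1.31 TPM. Cxcl12 was most like Itih5 (0.955) and the collagen gene Col3a1 (0.943). Ackr3 was most like Etv4 (0.895) and Pcdh20 (0.894). For Astn1 they were Cpd (0.945) and Tbc1d24 (0.934), and for Astn2 Actr1a (0.947) and Vopp1 (0.942). Dcx was most like Xkr4 (0.937) and the partner gene Erbb4 (0.92), which fell in Hom. Pard6a was most like Pex19 (0.936) and Wscd2 (0.935), and Dclk2 like Gm15265 (0.939) and Afdn (0.921). The values were lower for Dclk1, with Akr1b10 (0.892) and a gene without a symbol (0.88, mean level only 0.914 TPM). They were also lower for Pafah1b1, with Setd2 (0.876) and Gm17709 (0.863). Between the 10 genes themselves, the highest r were those of Dclk1 with Pafah1b1 (0.662) and Astn2 with Dcx (0.646), and the lowest those of Pard6a with Astn1 (-0.668) and with Cxcr4 (-0.643).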

How the data were processed

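Total RNA of GNPs was sequenced in 14 libraries (single-end reads). Per the submitters' processing notes and the study's methods, the authors mapped reads to the mm10 Ensembl transcriptome with Bowtie 1.0.0, estimated expression with RSEM 1.2.15 at default settings and deposited gene-level TPM. Strand was not used. The depth of each library is unknown from TPM, so no counting error or detection limit could be given.

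Groups came from the labels, and batches from the study's methods. Het 3 was deposited with the later libraries but is placed in batch 1 by the methods. The labels do not say whether libraries are separate animals or litters, so p-values measure the spread between libraries. No columns were identical.

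Of the 41381 genes, 40254 had a symbol in GENCODE (GRCm38). Genes with at least 1 TPM in at least 4 libraries (17325) were tested on log2(TPM + 1) with limma 3.58.1 in R 4.3.3 (lmFit, eBayes with trend), with genotype and batch as terms and all 14 libraries in each fit. Two-sided p-values were adjusted over all genes tested (Benjamini-Hochberg), with a threshold of 0.05. Batch was a term in the fit where the study used ComBat. The script was tested on simulated data. Promoters came from RefSeq (GRCm38.p6) and positions from GENCODE.

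The members and the partner and marker lists were chosen with earlier results of these data known. Partners were named where called, and otherwise the 3 with the smallest p per contrast. Each member was also given the 2 genes with the highest r.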

Additional observations from a re-analysis of the deposited data

Results flagged for a closer look

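In 2 of the 30 groups of values tested (10 genes in 3 genotypes), 1 library stood apart from the rest by Dixon's criterion. Chance alone flags about 1 in 20 such groups. The first was Cxcr4 in WT 5, at 116.83 TPM, with the nearest WT library at 68.37 TPM (ratio of gap to range 0.771, critical value 0.71). Without WT 5 the Hom change of Cxcr4 was 0.91 (limma adjusted p = 0.00488), against 0.73 (0.0498) with it. WT 5 also held the lowest meningeal sum (102.7 TPM) and an endothelial sum of 121.0 TPM. The second was Ackr3 in Het 1, at 2.23 TPM, with the nearest Het library at 3.89 TPM (ratio 0.86). Het 1 was the lowest of all libraries for this gene, and the other Het libraries also lay below every WT library.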

How the results depend on the processing

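Cxcr4 and Pard6a kept their direction in Hom against WT under every alternative run. The call of Cxcr4 was lost (0 of the 10 genes called higher) with a pseudocount of 0.1 (adjusted p = 0.0504), with genes above 0 TPM in at least 4 libraries kept (0.0745), with median-ratio scaling (0.0557), without the batch term (0.0611), with Het 3 placed in batch 2 (0.0597), in batch 1 alone, in batch 2 alone, with the endothelial sum and with only the 2 genotypes compared in the fit (0.0891). The exact Kruskal-Wallis test on batch-removed values is a test over the 3 genotypes together and not of Hom against WT. The test counts arrangements of the 14 libraries across both batches and makes no allowance for the batch term removed before it. At its threshold of 0.01 Pard6a passed (exact p = 0.0016), and among the 10 genes 0 with a higher Hom mean did (Cxcr4, exact p = 0.0204). The call of Cxcr4 was kept with genes of a mean TPM of at least 5 (0.0402). The call of Pard6a was lost (0 called lower) without the batch term (0.0611), in batch 1 alone, in batch 2 alone, with the endothelial sum and with only the 2 genotypes (0.0606). Over the fits that leave 1 library out, 1 to 2 of the 10 were called lower and 0 to 1 higher, and 0 to 3 partners lower and 0 to 2 higher. Partners called lower numbered 1 with genes above 0 TPM kept, without the batch term, with Het 3 in batch 2, under the replicate block and with the endothelial sum, and 0 in batch 1 alone, in batch 2 alone and with only the 2 genotypes. Partners called higher numbered 0 in batch 2 alone, under the replicate block, with the endothelial sum and with only the 2 genotypes. No member was called in Het or in Hom against Het under any alternative. The cause of these changes was not tested, although the single batches and the 2-genotype fits hold fewer libraries. The Kruskal-Wallis p is given once, beside Hom against WT, since it belongs to no single pair of groups. Ackr3 and Nrg1 have no value with a mean TPM of at least 5.

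Changes that did not pass the test turned sign under some alternatives, among them Astn2 in Hom (-0.22 in the reported fit) and Cxcr4 in Het (0.13), the others being within 0.12 of 0. In Hom against WT, Cxcl12 was -0.02109 with median-ratio scaling, -0.001539 without the batch term, -0.06863 in batch 2, -0.01706 under the replicate block and -0.2713 with the endothelial sum. In the same contrast, batch 1 alone gave 0.03939 for Astn2, 0.03887 for Dclk1, 0.1276 for Dclk2 and 0.09673 for Pafah1b1. Dclk1 was 0.02275 under the replicate block and 0.01815 with the endothelial sum, Dclk2 0.003459 without the batch term, and Pafah1b1 0.1038 under the block. In Het against WT, batch 2 alone gave -0.1907 for Cxcr4 and -0.159 for Astn2, and the endothelial sum gave -0.07758 for Cxcl12 and -0.05458 for Astn2. Batch 1 alone gave 0.04136 for Dcx, 0.002888 for Dclk1, 0.09893 for Dclk2 and 0.04128 for Pafah1b1 in Het, and Het 3 in batch 2 gave 0.003256 for Dcx and 0.002528 for Pafah1b1. In Hom against Het, Ackr3 was 0.0008122 without the batch term, 0.01166 with Het 3 in batch 2, 0.006981 in batch 1 and 0.0998 under the replicate block. Dclk1 was -0.003924 with median-ratio scaling, -0.003027 without the batch term and -0.01617 with Het 3 in batch 2. Dclk2 was 0.005197 without the batch term, 0.02147 with Het 3 in batch 2 and 0.02865 in batch 1. Pafah1b1 was -0.01111 with median-ratio scaling, -0.006273 without the batch term, -0.0145 with Het 3 in batch 2 and -0.03086 in batch 2. With 1 library left out, the changes that turned sign ran, for Hom against WT, from -0.09394 to 0.1444 for Cxcl12, from -0.05811 to 0.005783 for Dclk1, from -0.1022 to 0.02921 for Dclk2 and from -0.09185 to 0.04589 for Pafah1b1. For Het against WT they ran from -0.0786 to 0.007059 for Dclk1, from -0.04386 to 0.03058 for Dclk2 and from -0.06898 to 0.02773 for Pafah1b1. For Hom against Het they ran from -0.2123 to 0.006089 for Cxcl12, from -0.1262 to 0.0932 for Ackr3, from -0.02485 to 0.05577 for Dclk1, from -0.1005 to 0.03095 for Dclk2 and from -0.07792 to 0.06177 for Pafah1b1.

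Replicate numbers were not taken as pairs. The deviations of same-numbered libraries from their group means had r from -0.117 to 0.34 over 13 pairs, 9 of them over 0.1, and after removal of the batch term from -0.235 to 0.264, with 3 over 0.1. Under the replicate block, 1 of the 10 genes was called lower and 1 higher, and over all genes the calls numbered 144 lower and 115 higher, against 245 and 220 without it. Grk3 changed by 0.5444 (adjusted p = 0.0748) under the block.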
